A study of Mus with 7 samples.

Results

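Barcodes that the study's quality filter removes for their mitochondrial content were set beside the cells that it keeps. In each of 7 single-cell libraries of fetal liver-derived macrophages (FLMs), a high-mitochondrial barcode was one with at least 20% of its unique molecular identifiers (UMIs, tags that count captured RNA molecules) in the 13 genes of the mitochondrial genome. An intact cell had less than 20% there, more than 20000 UMIs and at least 2000 genes. Members were thus chosen by their measured mitochondrial share, and intact cells by that share and their depth. The rule gave 17148 high-mitochondrial barcodes (55.05%) and 11640 intact cells (37.4%) among 31151 barcodes, and the other 2363 barcodes fell in neither class. "Intact" is only the name of the class, since no measure of membrane integrity per barcode came with the data. The paper reports that most cells of every group were viable by Trypan Blue exclusion before single cells were isolated. That measure covers each suspension as a whole and cannot be assigned to either class.

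FLMs are self-renewing macrophages grown from mouse fetal liver with the growth factor GM-CSF, and all groups were wild type (wt) and received 30 ng/mL of it. The cells came from C57BL/6J mice. Con cells were taken from medium with 10% FBS before any treatment. All other groups spent 24 h in 0.25% FBS, with 25 µM docosahexaenoic acid (DHA, an omega-3 fatty acid) bound to BSA, or with the same 8.3 µM of BSA and no fatty acid (Veh). Veh.LPS.0 and DHA.LPS.0 were collected then. Veh.LPS.1, DHA.LPS.1, Veh.LPS.4 and DHA.LPS.4 were collected after 1 or 4 h of 20 ng/mL bacterial lipopolysaccharide (LPS), diluted in serum-reduced medium. The paper does not state whether the DHA or BSA complex was still present during LPS. Each condition had 1 library, cultured primary cells stood in for tissue macrophages, and no statement on separate dishes or animals per library was found. Differences between conditions therefore have no replicate check, whereas the contrast between the classes was measured within each library. High-mitochondrial barcodes made up 29.0% of all barcodes in Con, 35.8% to 54.7% in the Veh libraries and 74.4% to 80.0% in the DHA libraries. Intact cells made up 40.6% to 55.6% in the Veh libraries and 12.1% to 18.5% in the DHA libraries.

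Messenger RNAs sit in different places in a cell. Those for secreted proteins, for enzymes of the lysosome and for most proteins of the plasma membrane are translated by ribosomes bound to the endoplasmic reticulum (ER), which is continuous with the nuclear envelope. Those for most soluble proteins and for most proteins imported into mitochondria are translated in the cytosol, some long noncoding RNAs never leave the nucleus, and transcripts of the mitochondrial genome stay inside the organelle. A high share of mitochondrial transcripts is commonly used in droplet experiments as a sign of a damaged or dying cell.

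The 2 classes held nearly the same number of mitochondrial molecules and very different numbers of nuclear ones. The median barcode of the high-mitochondrial class held 2141 mitochondrial UMIs in Veh.LPS.1, the lowest of the libraries, 3038 in DHA.LPS.1, the middle one, and 4135 in Veh.LPS.4, the highest. The median intact cell held 2060, 2725 and 3905 in the same libraries, and over all 7 libraries the high-mitochondrial median was 1.04 to 1.12 times the intact one. Nuclear genes gave a median of 3664 to 7722 UMIs per high-mitochondrial barcode and 27182 to 52635 per intact cell. The mean nuclear UMIs of a high-mitochondrial barcode were 10.7% of the intact mean in Con, 13.8% in Veh.LPS.1 and 15.5% in DHA.LPS.4, the lowest, middle and highest of the libraries. The mitochondrial share thus differed between classes through the nuclear total, and these totals are part of the rule, so they are given as a description.

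**Figure D1:**
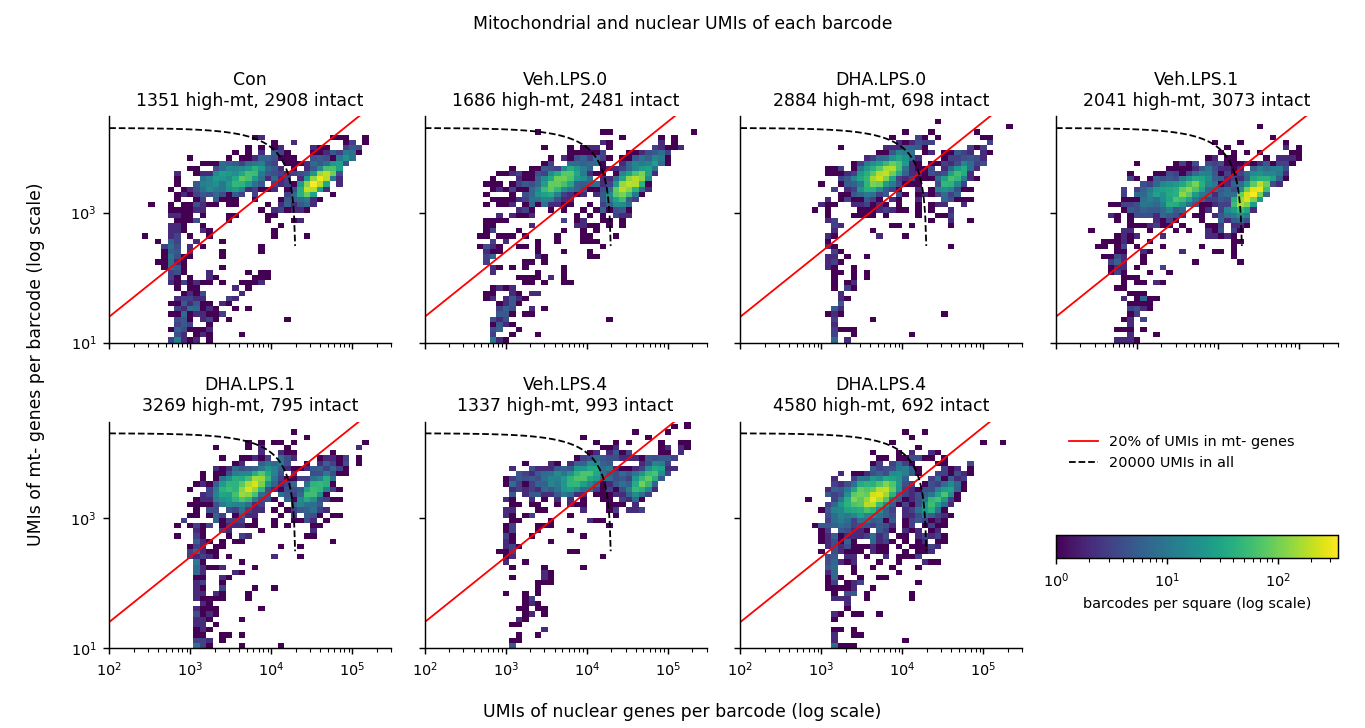
UMIs of the mt- genes (vertical, log scale) against UMIs of nuclear genes (horizontal, log scale) for the barcodes of each library, with colour for the number of barcodes per square, the red line at 20% mitochondrial UMIs and the dashed curve at 20000 UMIs in all (barcodes under 10 mitochondrial UMIs lie outside the axes). Each panel shows a cloud above the red line and a second cloud at a like height to its right, with few barcodes between them.

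Few barcodes lay near the 20% limit of the rule, but in some libraries many lay near the limit of 20000 UMIs. Intact cells with at most 30000 UMIs numbered 1635 of 3073 in Veh.LPS.1, 356 of 692 in DHA.LPS.4 and 35 of 698 in DHA.LPS.0. Barcodes under 20% with 10000 to 20000 UMIs numbered 414, 114 and 22 in the same libraries. Between 15 and 20% mitochondrial UMIs there were 38 barcodes in DHA.LPS.0 and 107 in DHA.LPS.4, the fewest and the most, and between 20 and 25% there were 30 and 347 in the same libraries. The median share was 32.7% to 43.8% in the high-mitochondrial class and 6.61% to 7.53% in intact cells. Of the high-mitochondrial barcodes, 15 in Veh.LPS.1 to 102 in Veh.LPS.4 also passed the limits on UMIs and genes. Barcode sequences were shared between libraries in 172 of 30977 cases, of which 2 were in more than 2 libraries.

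High-mitochondrial barcodes carried the RNA of macrophages. At least 3 of 9 macrophage markers had a UMI in 94.37% of them in Con (exact binomial 95% interval 93.01 to 95.54, 1351 barcodes), the lowest share, and in 99.55% in DHA.LPS.0 (99.23 to 99.76, 2884 barcodes), the highest. Every intact cell reached this count. No high-mitochondrial barcode held 3 markers of any of the other types listed, which were erythroid, lymphoid, dendritic, stromal, mast cell, neutrophil, megakaryocyte and hepatocyte. For barcodes with 3 such markers, 0 of 17148 allows a share of up to 0.0175%. In each sum, 1 of 3 megakaryocyte and 4 of 5 lymphoid markers had no UMI, so 3 could not be reached for these types. The bound is thus not one on the share of other cells. These intervals cover counting error only. Free RNA could not be measured, because the cultures held macrophages alone and the files list called barcodes only, so the part of free RNA in the high-mitochondrial barcodes was not tested.

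To compare composition, the UMIs of each class were summed per gene and library, the mt- genes were left out of the totals, and the sums were scaled to a common total (CPM). A gene called higher or lower had a CPM ratio between the classes of more than 1.5-fold in the same direction in each of the 7 libraries, among 5832 nuclear genes with a mean of at least 20 CPM. No test was made, since the classes were chosen by UMIs of the same barcodes, and the 7 libraries show only whether a ratio recurred. Higher means a larger share of what was left: with 10.7% to 15.5% of the nuclear UMIs, a gene called higher had in nearly every case fewer molecules per barcode than in an intact cell.

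The median log2 ratio over all tested genes was -0.28 in Veh.LPS.1, the lowest library, and 0.0026 in Veh.LPS.4, the highest, and list medians are to be set beside it. By this rule 918 genes (15.7% of those tested) were higher and 750 (12.9%) were lower in high-mitochondrial barcodes. Counts of called genes in each list below are to be read beside these shares. Where the classes of a gene are said not to overlap, this describes that gene only, as the share over all genes is not given. Over genes, the log2 ratio had an interquartile range of 1.03 to 1.34 in single libraries. Across these genes, the log2 ratios of 2 libraries correlated with a Pearson's r of 0.836 to 0.972 (median 0.931), where genes are not independent replicates and base composition and 3′ capture are shared. The split of calls depended on the scaling. With TMM factors, which assume that most genes keep their share, 743 genes were higher and 929 lower, so that 44.4% in place of 55.04% of the calls were higher. With totals that leave out genes over 0.5% of a library, an alternative chosen after seeing the data, the counts were 1080 and 458 (70.2% higher). No gene called in the main comparison was called in the opposite direction in any of the alternatives run.

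**Figure D2:**
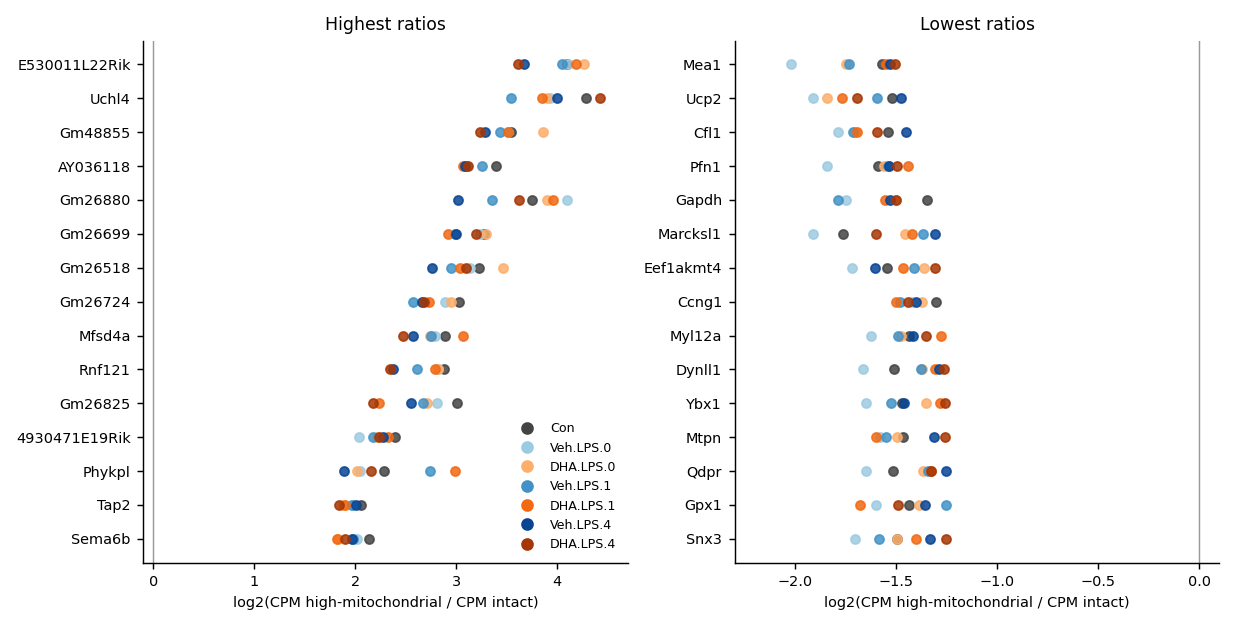
Log2 ratio of CPM in high-mitochondrial barcodes to CPM in intact cells (horizontal) for the genes with the highest (left) and the lowest (right) ratio in their least extreme library, 1 point per library. All 7 libraries lie on the same side of 0 for each gene, from 1.82 upward on the left and from -1.25 downward on the right.

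Long noncoding and predicted transcripts led the genes that were higher. E530011L22Rik, a long noncoding RNA on chromosome 9 (121756640 to 121759943, GRCm38.p6), had 34.6, 50.5 and 87.8 CPM in the lowest, median and highest library of the high-mitochondrial class. In intact cells it had 2.56, 3.06 and 4.79 CPM, and its log2 ratio was 3.61 to 4.26. It passed the filter of a mean of 20 CPM only through the high-mitochondrial class, so its place in this list is partly set by the filter. Uchl4, a ubiquitin hydrolase gene that closely resembles Uchl3 so that the split of reads between them is uncertain, had log2 ratios of 3.54 to 4.43. Gm48855, Gm26880, Gm26699, Gm26518, Gm26724, Gm26825 and 4930471E19Rik, predicted or noncoding transcripts without a known function, were among the 15 highest too. Among the 5832 genes tested, 6 had more UMIs per barcode in the high-mitochondrial class than in intact cells in each library, namely E530011L22Rik, Uchl4, Gm26880, Gm48855, AY036118 and Gm26699. Their median excess ran from 1.19-fold for Gm26699 to 2.28-fold for E530011L22Rik, beside the 1.04 to 1.12 of the mitochondrial transcripts. AY036118 is listed below among genes whose reads are known to come largely from ribosomal RNA sequence. The files hold no sequence, so whether reads of the other transcripts could also come from a mitochondrial or ribosomal RNA was not tested. The fewest UMIs behind any of these ratios were the 34 of Gm26880 in 1 intact sum (exact Poisson 95% interval 23.5 to 47.5). Uchl4 and Gm48855 had 58 and 68 UMIs in their smallest intact sums. Genes with so few intact UMIs may also have passed the filter through the high-mitochondrial class alone, so the count of 6 is a description only.

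The other 5 of the 15 highest encode proteins, most of them of membranes. Rnf121, a ubiquitin ligase of the ER membrane, had 167, 232 and 262 CPM in the lowest, median and highest high-mitochondrial sum and 31.5, 34.3 and 36.9 CPM in intact cells. Its classes did not overlap, and its log2 ratio was 2.35 to 2.88. Tap2, a subunit of the transporter that brings antigenic peptides into the ER, had log2 ratios of 1.84 to 2.06, Sema6b, a transmembrane semaphorin, 1.82 to 2.14, and Phykpl, an enzyme of hydroxylysine breakdown, 1.89 to 2.99. Mfsd4a belongs to the major facilitator family of transporters. Sema6b, Mfsd4a, Tap2 and Phykpl had 144, 184, 194 and 325 UMIs in their smallest intact sums. These genes may have passed the filter only through the high-mitochondrial class, so their place among the 15 highest may be partly set by it.

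RNAs that stay in the nucleus made up a larger share of high-mitochondrial barcodes. Of 10 such genes listed, 4 passed the filter on low values, and these 4 were higher (100%, beside 15.7% of all genes), and the list's median log2 ratio was 1.13 in DHA.LPS.1, 1.40 in DHA.LPS.0 and 1.70 in Con, the lowest, middle and highest libraries. Malat1, an abundant RNA of nuclear speckles on chromosome 19 (5795690 to 5802672), had 30010, 55810 and 62170 CPM in the lowest, median and highest high-mitochondrial sum and 6945, 14800 and 18250 CPM in intact cells. Its classes did not overlap, and its log2 ratio was 1.22 to 2.11. Neat1, the RNA scaffold of paraspeckles, had log2 ratios of 1.03 to 1.72, Kcnq1ot1, an imprinted antisense RNA, 1.30 to 1.68, and Tug1 0.73 to 1.29. Of 25 genes that RefSeq annotates as lncRNA, 44.0% were higher and none was lower. Their median log2 ratio over the libraries was 0.95, where the 5657 protein-coding genes had a median of -0.10. Some of these lncRNAs may have passed the filter only through the high-mitochondrial class, as E530011L22Rik did. Their share and median may thus be partly set by the filter and are a description only.

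Transcripts known for introns that are spliced late had a smaller share of called genes. Among 24 genes of splicing and speckle proteins, 5 were higher (20.8%, near the 15.7% of all genes) and none was lower, and their median log2 ratio was 0.19 to 0.77. Son, a scaffold of nuclear speckles, had 617 to 832 CPM in high-mitochondrial barcodes and 205 to 286 CPM in intact cells, a log2 ratio of 1.27 to 1.63. Ogt, the enzyme that adds N-acetylglucosamine to nuclear and cytosolic proteins, had 1.13 to 1.73, and Clk1, a kinase of splicing factors, 0.87 to 1.27. Ddx5, an RNA helicase of the same list, had -0.29 to 0.20.

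Genes whose reads are known to come largely from ribosomal RNA sequence stood with the nuclear RNAs. AY036118 had 786, 1015 and 1467 CPM in the lowest, median and highest high-mitochondrial sum, against 91.5, 119 and 140 CPM in intact cells. The log2 ratios were 3.07 to 3.39 for AY036118, 1.17 to 1.84 for Gm42418, 1.65 to 2.20 for Gm26917 and 1.14 to 1.74 for Lars2. Cmss1, the fifth gene of the list, had -0.55 to -0.13 and was not called.

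Lists of genes of the secretory pathway and the cell surface held many genes that were higher. Of 20 ER chaperones and folding enzymes, 14 were higher and 1 was lower, with a median log2 ratio of 0.81 in Veh.LPS.4, 1.29 in DHA.LPS.1 and 1.79 in Con. Hspa5, the main HSP70 chaperone of the ER lumen, had 3099, 4738 and 7276 CPM in the lowest, median and highest high-mitochondrial sum and 1180, 1794 and 2395 CPM in intact cells. Its classes did not overlap, and the log2 ratio was 1.09 to 1.96. Hsp90b1, the HSP90 of the ER, had log2 ratios of 1.02 to 2.08, Pdia3, a disulfide isomerase for glycoproteins, 0.98 to 2.25, and Canx, a lectin chaperone anchored in the membrane, 0.95 to 1.79. Manf, a small secreted ER protein, had 0.46 in Veh.LPS.4 and was not called.

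The single gene of this list that was lower encodes a subunit of the translocon, the channel through which new proteins enter the ER. Sec61b, a subunit held in the membrane by its last residues, had 218, 236 and 301 CPM in the lowest, median and highest high-mitochondrial sum and 410, 513 and 650 CPM in intact cells. Its log2 ratio was -1.26 to -0.90, whereas Sec61a1, the subunit that forms the channel and spans the membrane many times, had 0.84 to 1.70. Sec61g, the third subunit and also tail-anchored, had -0.66 to -0.39 and was not called.

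Lysosomal genes gave one of the highest medians. Of 25 genes for lysosomal enzymes and membrane proteins, 19 were higher (76.0%), none was lower, and the median log2 ratio was 1.21 in DHA.LPS.4, 1.43 in DHA.LPS.0 and 1.76 in Con. Ctsd, the aspartic protease cathepsin D, had 1668, 1849 and 2457 CPM in the lowest, median and highest high-mitochondrial sum and 449, 667 and 956 CPM in intact cells, with no overlap. Its log2 ratio was 1.10 to 1.96, and that of Ctsl, the cysteine protease cathepsin L, was 1.54 to 2.18. Cd63, a tetraspanin of late endosomes, had 1.23 to 1.98, Npc1, the cholesterol exporter of the lysosomal membrane, 1.33 to 1.91, and Grn, the progranulin precursor, 1.22 to 1.70. The genes that were not called included Lamp1, a coat protein of the lysosome, with 0.42 to 1.43, and Laptm5, with 0.33 to 1.39, both lowest in Veh.LPS.4.

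Receptors of the macrophage surface were higher in 20 of 23 cases (87.0%), with a median log2 ratio of 0.98 in Veh.LPS.4, 1.38 in DHA.LPS.0 and 1.68 in Con. Ptprc, the leukocyte phosphatase CD45, had 566, 608 and 724 CPM in the lowest, median and highest high-mitochondrial sum and 130, 166 and 219 CPM in intact cells. The classes did not overlap and the log2 ratio was 1.67 to 2.13. Itgam, the integrin chain CD11b, had 1.26 to 1.64, Csf1r, the receptor of the growth factor CSF-1, 1.18 to 1.74, Cd14, the co-receptor for LPS, 1.24 to 1.57, and Tlr4, its signalling receptor, 0.80 to 1.40. Tyrobp, a short adaptor chain, was not called and crossed 0, with -0.11 in Veh.LPS.4 and 0.65 in Con. The 9 macrophage markers summed to 13370 to 17870 CPM in high-mitochondrial barcodes and 6300 to 7638 CPM in intact cells. All of them but Spi1 belong to the receptor, lysosomal or secreted lists, so this sum repeats values of those lists. Spi1, the myeloid transcription factor among those markers, was lower, with log2 ratios of -1.22 to -0.75.

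Secreted proteins were higher in 7 of 18 cases (38.9%) and none was lower, with a median log2 ratio of 0.77 to 1.59. Lyz2, a lysozyme, had 3901, 6076 and 8817 CPM in the lowest, median and highest high-mitochondrial sum and 2051, 2277 and 2681 CPM in intact cells, a log2 ratio of 0.86 to 1.75. Spp1, osteopontin, had a log2 ratio of 1.605 in Veh.LPS.4 and 2.43 in Veh.LPS.0, and Lpl, lipoprotein lipase, 0.71 to 1.59. The chemokine gene Ccl3 missed the call in Veh.LPS.4 alone, with 0.45, and Ccl2 in Veh.LPS.4 with -0.11 and in DHA.LPS.0 with 0.52.

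**Figure D3:**
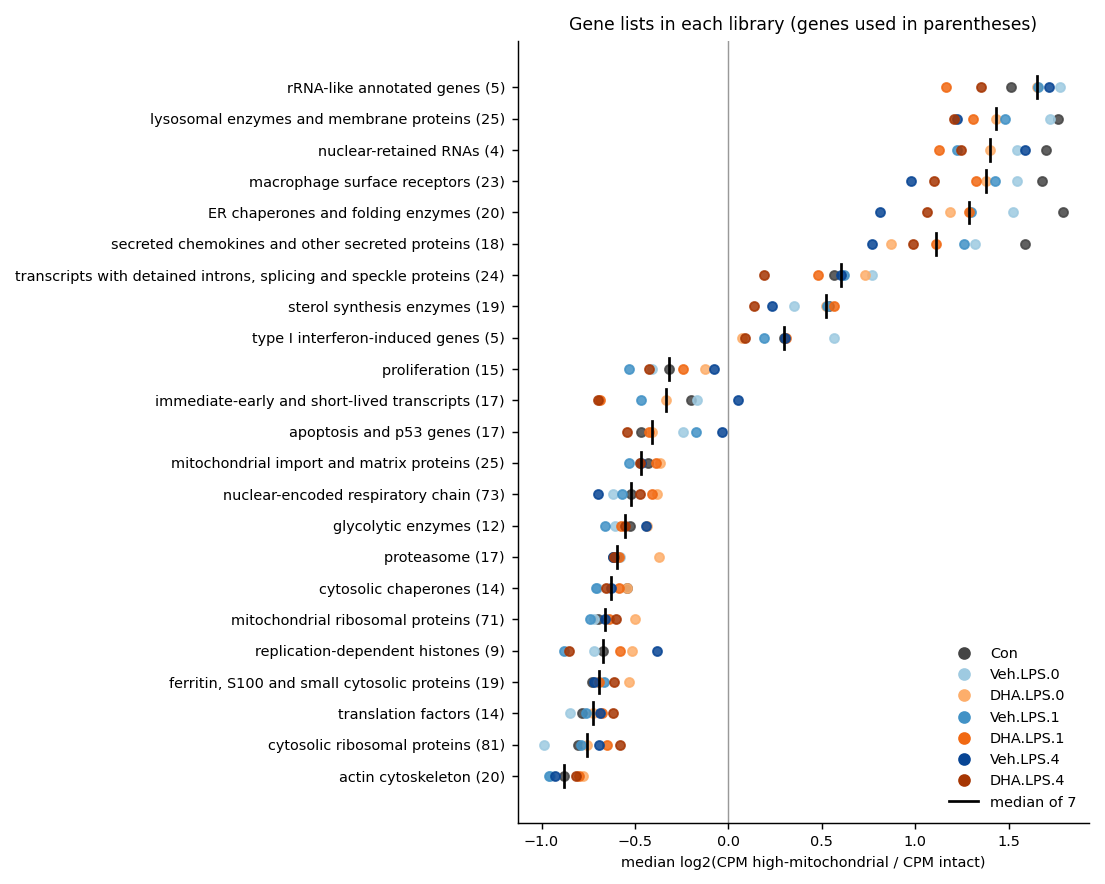
Median log2 ratio of CPM in high-mitochondrial barcodes to CPM in intact cells (horizontal) over the genes of each list (rows), with 1 point per library and a black bar at the median of the 7 libraries. The nuclear, ribosomal-RNA-like, lysosomal, receptor and ER lists lie between 0.81 and 1.79, and the lists of cytosolic and mitochondrial proteins lie below 0 in each library.

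Genes for soluble and cytoskeletal proteins of the cytosol made up a smaller share. Of 20 genes of the actin cytoskeleton, 12 were lower (60.0%, beside 12.9% of all genes) and 1 was higher, with a median log2 ratio of -0.96 in Veh.LPS.1, -0.88 in Con and -0.78 in DHA.LPS.0. Cfl1, cofilin, which severs actin filaments, had 275, 338 and 410 CPM in the lowest, median and highest high-mitochondrial sum and 895, 989 and 1197 CPM in intact cells. Its classes did not overlap, and its log2 ratio was -1.79 to -1.45, close to the -1.84 to -1.44 of Pfn1, profilin. The gene that was higher, Flna, encodes filamin A, a very long actin cross-linker, and had 0.85 to 1.16. Among 20 small GTPases, a list added after values were seen, 12 were lower and none was higher, with Rac1 at -1.21 to -0.86.

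The 15 genes with the lowest ratios included Cfl1 and Pfn1. Gapdh, a glycolytic enzyme on chromosome 6 (125161852 to 125166467), had 985, 1069 and 1215 CPM in the lowest, median and highest high-mitochondrial sum and 2721, 3311 and 3479 CPM in intact cells. A high-mitochondrial barcode held a median of 0.0461 times the Gapdh UMIs of an intact cell over the libraries, beside 0.462 times for Malat1. Mea1, Ucp2, Marcksl1, Eef1akmt4, Ccng1, Myl12a, Dynll1, Ybx1, Mtpn, Qdpr, Gpx1 and Snx3 completed the 15 lowest, with median log2 ratios from -1.70 to -1.34. Ucp2 among them encodes a carrier of the inner mitochondrial membrane, and Ybx1 an abundant protein that binds messenger RNA in the cytosol. Cdkn1a, the cell cycle inhibitor p21, had -2.11 in DHA.LPS.1 and -1.24 in Veh.LPS.4.

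Of 12 glycolytic enzymes, 3 were lower (25.0%) and Hk2 was higher, with a median log2 ratio of -0.66 to -0.43. Hk2 encodes hexokinase 2, which docks on the outer mitochondrial membrane, and had 88.4, 129 and 228 CPM in the lowest, median and highest high-mitochondrial sum against 34.5, 43.2 and 86.9 CPM in intact cells. Its log2 ratio was 1.15 to 1.86. Ferritin, S100 and other small cytosolic proteins were lower in 8 of 19 cases (42.1%), among them Fth1, the ferritin heavy chain, with -1.24 to -0.94. The proteasome (4 of 17 lower, 23.5%, beside 12.9% of all genes) and the cytosolic chaperones (6 of 14 lower, 42.9%) had no gene that was higher. Their median log2 ratios were -0.62 to -0.37 and -0.71 to -0.54.

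Transcripts of the translation machinery were lower as well. Of 81 cytosolic ribosomal protein genes, 38 were lower (46.9%) and none was higher, with a median log2 ratio of -0.99 in Veh.LPS.0, -0.76 in DHA.LPS.0 and -0.58 in DHA.LPS.4. Rplp0, a protein of the ribosomal stalk, had 1848, 2473 and 2665 CPM in the lowest, median and highest high-mitochondrial sum and 4596, 4964 and 5326 CPM in intact cells. Of 14 translation factors, 6 were lower, led by the abundant elongation factor gene Eef1a1 with log2 ratios of -1.28 to -0.78.

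Nuclear genes for mitochondrial proteins did not follow the mitochondrial transcripts. Of 73 genes of the respiratory chain that the nucleus encodes, 20 were lower (27.4%) and none was higher, and the median log2 ratio was -0.70 in Veh.LPS.4, -0.52 in Con and -0.38 in DHA.LPS.0. Mitochondrial ribosomal proteins were lower in 26 of 71 cases (36.6%), with a median of -0.74 to -0.50, and import and matrix proteins in 2 of 25 (8.0%, below the 12.9% of all genes), with a median of -0.53 to -0.37. Atp5e, a small subunit of the ATP synthase, had -1.28 to -0.68, while Cox4i1, a subunit of cytochrome c oxidase, had -0.29 in Veh.LPS.4 and 0.44 in Con and was not called.

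Within single pathways, lists drawn by where the protein sits had different medians. Whether location or another trait, such as protein length, has a part in this was not tested. In sterol synthesis, 8 of 12 enzymes of the ER membrane were higher and none lower, with a median log2 ratio of 0.87 to 1.70, while the 7 enzymes outside that membrane had none past the limit and medians of -0.42 to -0.10. Cyp51, the demethylase of lanosterol, had 203, 663 and 995 CPM in the lowest, median and highest high-mitochondrial sum and 43.8, 160 and 302 CPM in intact cells. Its ranges overlapped over the libraries, which differed widely in its level, but within each library the high-mitochondrial class was higher, with a log2 ratio of 1.34 to 2.21. Hmgcs1, a soluble enzyme early in the pathway, had -0.26 to 0.30 and Acat2, the first step, -0.95 to -0.34. Fdft1, squalene synthase, sits in the ER membrane through its end and had -0.44 to 0.26. This subdivision, like the lists of V-ATPase subunits, solute carriers, TMEM proteins, integrins, ER membrane complex and tail-anchored proteins, was drawn after values had been seen.

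The subunits of the V-ATPase, the proton pump of the lysosome, were listed by location in the same way. Of 6 subunits within the membrane, 4 were higher (66.7%, beside 15.7% of all genes) and none lower, with a median log2 ratio of 0.83 to 1.40. Of 9 peripheral subunits, 5 were lower (55.6%, beside 12.9% of all genes) and none higher, with -0.95 to -0.66. Atp6ap2, an accessory subunit that spans the membrane, had 1.67 to 2.23, and Atp6v1g1, a peripheral stalk subunit, -1.16 to -0.82. Of 15 mitochondrial carriers of the SLC25 family none was higher and 3 were lower (20.0%, near the 12.9% of all genes), with a median of -0.60 to -0.32. Of 83 other solute carriers, 62 were higher (74.7%, beside 15.7% of all genes) and 1, Slc6a13, was lower, with a median of 1.05 to 1.58. All 7 integrin chains that entered were higher, as were 39 of 81 genes with a TMEM name and 4 of 8 subunits of the ER membrane complex. Only 83 of 342 other solute carriers, 81 of 250 TMEM genes and 7 of 26 integrin chains passed the filter on low values. Some may have passed only through the high-mitochondrial class. Their shares of higher genes may thus be partly set by the filter and are a description only. With no filter, the median log2 ratio over the libraries was 0.95 for these carriers, 0.55 for the TMEM genes and 1.57 for the integrin chains. Proteins anchored by a C-terminal tail enter the ER membrane only after they are made. Of 25 such genes, 9 were lower (36.0%) and none was higher, with a median of -0.82 to -0.56.

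**Figure D4:**
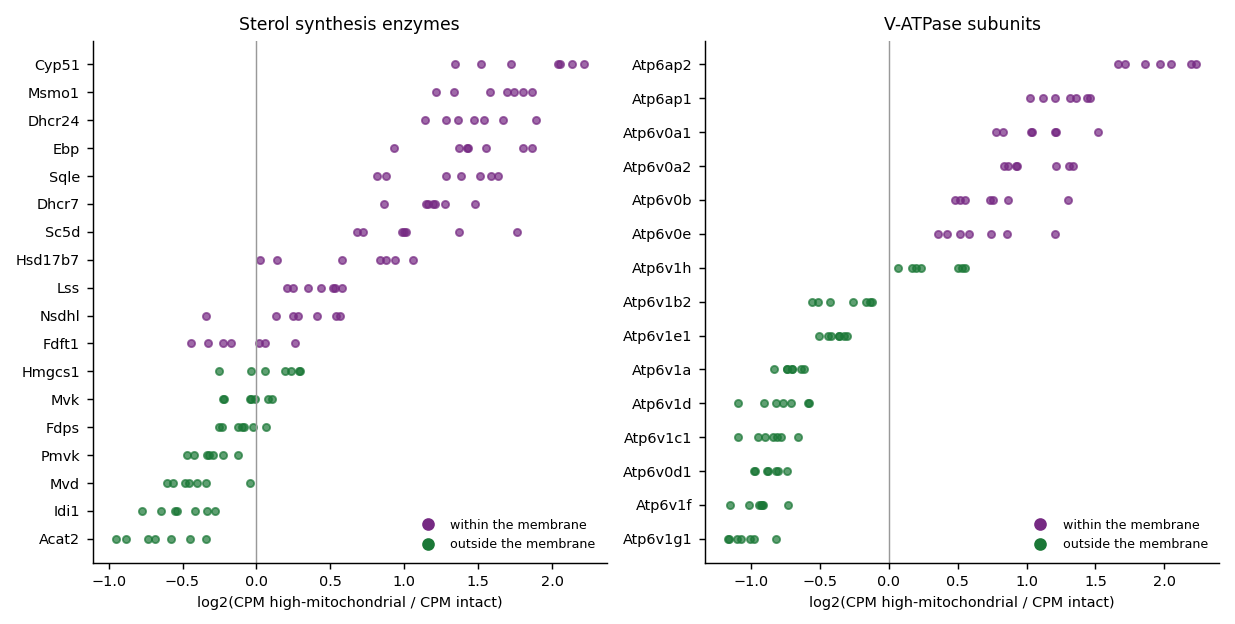
Log2 ratio of CPM in high-mitochondrial barcodes to CPM in intact cells (horizontal) for the enzymes of sterol synthesis reported here (left) and each subunit of the V-ATPase (right), with 1 point per library and colour for proteins within (purple) or outside (green) the membrane. Cyp51 lies at 1.34 or above and Atp6ap2 at 1.67 or above in each library, and Acat2 and Atp6v1g1 lie at -0.34 or below.

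Other gene groups had few genes called, though some of their list medians were below 0 in each library. The median log2 ratio was -0.88 to -0.38 for histones, -0.53 to -0.08 for proliferation genes and -0.55 to -0.03 for apoptosis and p53 genes. Of 17 immediate-early genes and other short-lived transcripts none was called, and their median log2 ratio ran from -0.70 in DHA.LPS.4 to 0.05 in Veh.LPS.4. Among 15 proliferation genes Mki67, which encodes a very large protein of the chromosome surface, was higher (0.67 to 1.11) and Ube2c, a small ubiquitin-conjugating enzyme, lower (-1.23 to -0.80). Among 17 apoptosis and p53 genes, the membrane receptor gene Fas was higher (0.94 to 2.02), and those lower included Cdkn1a and Trp53, which encodes p53, with log2 ratios of -1.00 to -0.66 for Trp53. Of 9 histone genes 1 was lower (11.1%), and of 5 interferon-induced genes none was called. Of 13 transcription factors of the NF-kB, IRF, STAT and related families, Rela and Spi1 were lower (15.4%, near the 12.9% of all genes). That list of transcription factors was added after values were seen.

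In UMIs per barcode, all of these lists were below intact cells, by different amounts. A high-mitochondrial barcode held, for the median gene of the list, 34.9% to 44.1% of the UMIs of an intact cell for lysosomal genes, 29.4% to 39.1% for surface receptors, 26.2% to 38.5% for ER chaperones and 32.3% to 44.8% for nuclear-retained RNAs. It held 6.13% to 10.3% for cytosolic ribosomal proteins, 5.81% to 8.79% for the actin cytoskeleton and 7.44% to 11.2% for the nuclear-encoded respiratory chain. These ranges of the 2 sets of lists did not overlap, but other lists lay between them. Splicing and speckle genes had 15.84% to 22.77%, and sterol synthesis enzymes 15.55% to 22.0%.

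The libraries differed in how far apart the classes lay. For ER chaperones, surface receptors and secreted proteins the median log2 ratio was lowest in Veh.LPS.4 and highest in Con, with 0.81 and 1.79 for the ER list. Both libraries with 4 h of LPS were among the 3 lowest for these lists. Intact cells of Veh.LPS.4 were the deepest of the series, with a median of 52635 nuclear UMIs, but those of DHA.LPS.4 had 27775, near the lowest, 27182 in Veh.LPS.1. What part depth, LPS or the share of barcodes in each class had in these differences cannot be told apart with 1 library per condition.

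Along the mitochondrial share the composition changed over several bins and then, for some lists, back. Among barcodes with 5 to 10% mitochondrial UMIs, where most intact cells lie, each of 7 lists had a median log2 ratio to intact cells within -0.06 and 0.03 in every library. That bin is largely made up of the intact cells themselves, so values near 0 there follow from the overlap. At 10 to 20% the lysosomal list had 0.26 to 0.69, at 20 to 30% it had 1.08 to 1.44 and at 30 to 50% it had 1.17 to 1.91. Nuclear-retained RNAs had 0.13 to 0.64, 0.98 to 1.49 and 1.09 to 1.63 in the same bins, and the actin cytoskeleton -0.25 to -0.08, -0.96 to -0.42 and -0.99 to -0.78.

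From 50 to 70% mitochondrial UMIs, in 127 to 401 barcodes per library, the nuclear-retained RNAs and the secretory lists parted, except in Veh.LPS.0. Nuclear-retained RNAs had a median log2 ratio of 1.39 to 2.32 there, not below their level at 30 to 50% in 6 of the libraries. In Veh.LPS.0 they had 1.39, beside 1.53 for the lysosomal list. Malat1 alone was lower than at 30 to 50% in Veh.LPS.0 (1.459 after 2.025), Veh.LPS.4 (1.313 after 2.057), Veh.LPS.1 (1.561 after 1.687) and DHA.LPS.0 (1.724 after 1.757). It was higher in Con, DHA.LPS.1 and DHA.LPS.4. The ER list had -0.20 in DHA.LPS.4, 0.01 in Veh.LPS.4, 0.14 in DHA.LPS.1, 0.20 in Veh.LPS.1, 0.33 in DHA.LPS.0, 0.80 in Con and 1.195 in Veh.LPS.0. Each of these was lower than in the same library at 30 to 50%, where the list had 0.78 to 2.04. The lysosomal list had -0.08 to 1.53 and the surface receptors 0.21 to 1.199, both highest in Veh.LPS.0 and lowest in Veh.LPS.4. Gapdh had -1.72 to -1.21 and the cytosolic ribosomal proteins -0.85 to -0.30. At 70% and above only 3 libraries had 20 or more barcodes, and their values are not read.

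**Figure D5:**
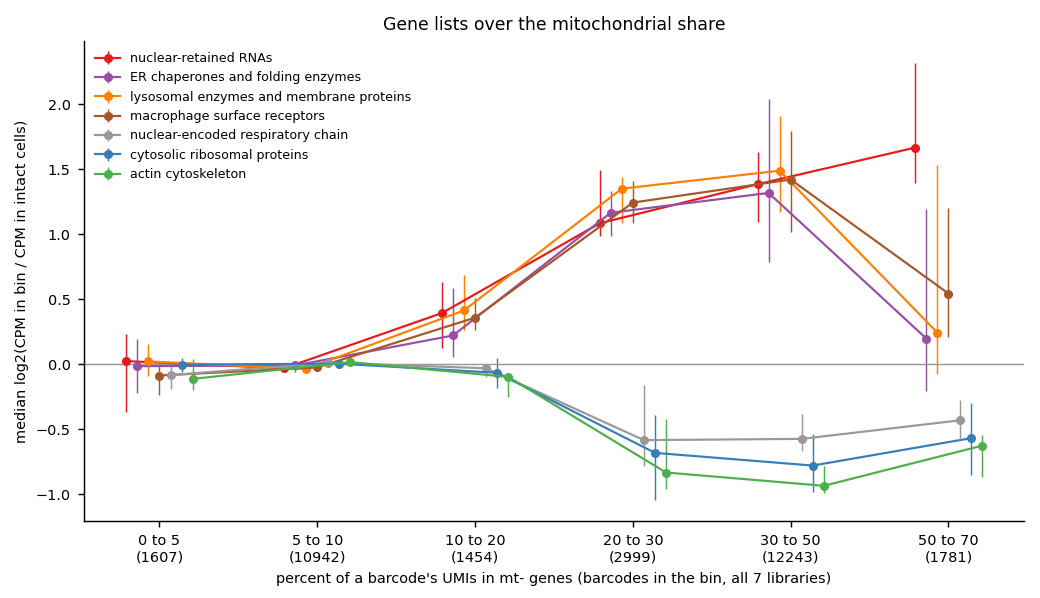
Median log2 ratio to intact cells of the same library (vertical) over 7 gene lists in bins of the mitochondrial share (horizontal, with the number of barcodes in all libraries in parentheses). Points are the median of the 7 libraries and bars run from the lowest to the highest library. The lists lie near 0 below 10%, where the bin of 5 to 10% is largely made up of the intact cells themselves. They separate over the bins from 10 to 50%. At 50 to 70% the nuclear-retained RNAs stay at 1.67 while the ER list lies at 0.20.

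Shallow barcodes of low mitochondrial share were set beside the same intact cells. In 1361 barcodes with less than 20% mitochondrial UMIs and fewer than 5000 UMIs, the median log2 ratio to intact cells over the libraries was -0.13 for the ER list, -0.23 for the lysosomal list, 0.09 for nuclear-retained RNAs and 0.04 for cytosolic ribosomal proteins. The single gene Gapdh was at -0.66 there. The ER list ranged from -0.79 in DHA.LPS.0 to 0.59 in DHA.LPS.4 in these barcodes, beside 0.81 to 1.79 in the high-mitochondrial class. Among the 15 to 102 high-mitochondrial barcodes per library that also passed the depth limits of the filter, 594 genes were higher and 428 lower.

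Among the mitochondrial transcripts some shares were alike in both classes and others differed. Their shares of the mitochondrial UMIs are not used by the rule, which takes only their sum. mt-Co3, a subunit of cytochrome c oxidase, made up 24.4% to 26.2% of them in high-mitochondrial barcodes and 23.5% to 25.0% in intact cells, and mt-Cytb of complex III 7.52% to 9.01% and 7.64% to 8.92%. mt-Co1, the catalytic subunit of the oxidase, made up 6.25%, 7.62% and 9.34% in the lowest, median and highest high-mitochondrial sum and 9.41%, 10.4% and 12.8% in intact cells, with a log2 ratio of -0.59 to -0.41. mt-Nd5 had -0.67 to -0.39, mt-Nd6, the single messenger encoded on the light strand, 0.42 to 0.60, and mt-Atp6 0.14 to 0.19. For mt-Co1, mt-Nd5, mt-Nd6 and mt-Atp6 the log2 ratio had the same sign in all 7 libraries. This also held for mt-Nd1, mt-Nd2, mt-Nd3, mt-Nd4, mt-Co2 and mt-Co3, where the ratio of mt-Co3 was only 0.03 to 0.07. The same sign was thus common among these transcripts. For mt-Co1, mt-Nd5 and mt-Nd6 the ranges of the classes also did not overlap.

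Differences between treatments were measured in the high-mitochondrial barcodes too. Between libraries there was no replicate, so the values are ratios of CPM with exact binomial 95% intervals that cover counting error only. The share of barcodes in each class also differed between DHA and Veh libraries, and its part in these ratios was not tested. Plin2, which coats lipid droplets, was 4.95 times as high in DHA.LPS.0 as in Veh.LPS.0 among high-mitochondrial barcodes (4.53 to 5.42) and 6.15 times among intact cells (5.98 to 6.34). At 1 h the ratios were 6.83 (6.24 to 7.49) and 7.58 (7.37 to 7.81), and at 4 h 7.90 (7.37 to 8.48) and 8.63 (8.36 to 8.91), each lower in the high-mitochondrial class. Scd1, a fatty acid desaturase, had 0.116 times the Veh level in high-mitochondrial barcodes at 0 h (0.0987 to 0.137) and 0.156 times in intact cells (0.136 to 0.178). For Sqstm1, a cytosolic autophagy receptor, the ratio at 0 h was 1.11 (1.03 to 1.19) in high-mitochondrial barcodes and 1.87 (1.82 to 1.92) in intact cells, and for Hmox1, heme oxygenase, 1.83 (1.67 to 2.01) and 2.42 (2.34 to 2.51). The metallothionein genes went the other way at 0 h, with 4.79 and 3.84 for Mt2 and 2.36 and 1.74 for Mt1, the high-mitochondrial class first.

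LPS gave large ratios in both classes. Tnf, a secreted cytokine, had 415 CPM in Veh.LPS.0 and 11560 CPM in Veh.LPS.1 among high-mitochondrial barcodes, a ratio of 27.9 (26.9 to 28.8), and 165 and 4093 CPM among intact cells, a ratio of 24.8 (24.4 to 25.2). Egr1, an immediate-early transcription factor, had ratios of 40.2 (31.7 to 51.6) and 66.7 (62.5 to 71.1), and Nfkbiz, a nuclear regulator of NF-kB, 29.9 (24.1 to 37.6) and 75.1 (69.6 to 81.2). Il1b, whose protein leaves the cell without passing through the ER, had no UMI in Veh.LPS.0 in either class. In Veh.LPS.4 it had 400 CPM in high-mitochondrial barcodes and 853 CPM in intact cells, and Tnf, which enters the ER, had 4525 and 2465 CPM. Ccl2, of the list of secreted proteins, had 11740 and 12630 CPM there, in the order of Il1b. In DHA.LPS.4 the pairs were 311 and 521 CPM for Il1b and 4473 and 2003 CPM for Tnf, the same order for these genes in both libraries. For Ccl2 the pair was 21530 and 13330 CPM, in the order of Tnf. Whether entry into the ER has a part in these values was not tested.

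For some chemokines the sign of the DHA contrast depended on the class. Ccl2, which attracts monocytes, had 0.728 times the Veh level at 0 h in high-mitochondrial barcodes (0.716 to 0.741) and 1.30 times in intact cells (1.29 to 1.32). At 4 h its ratio was 1.83 (1.82 to 1.85) in high-mitochondrial barcodes and 1.05 (1.05 to 1.06) in intact cells. Ccl3 had 1.35 (1.34 to 1.36) and 0.854 (0.8497 to 0.8576) at 4 h, and Cxcl2, which attracts neutrophils, 1.34 (1.34 to 1.35) and 0.878 (0.874 to 0.882). The pair for Cxcl2 was 0.737 (0.699 to 0.776) and 2.09 (2.03 to 2.15) at 0 h. At 1 h the ratios were 1.01 and 1.03 for Ccl2, 0.741 and 0.754 for Ccl3, and 1.08 and 0.932 for Cxcl2, which lay on opposite sides of 1. These ratios were not recomputed under another scaling.

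Over all tested genes, the log2 ratio of DHA to Veh in high-mitochondrial barcodes correlated with that in intact cells of the same libraries with a Pearson's r of 0.58 at 0 h, 0.62 at 1 h and 0.67 at 4 h. For LPS in Veh cells r was 0.89 at 1 h and 0.93 at 4 h, and both LPS contrasts share Veh.LPS.0. The classes share library, reagents and base composition and genes are not independent replicates. Of 27 genes that differed by more than 2-fold between DHA and Veh in intact cells at 0 h, 25 had the same sign in high-mitochondrial barcodes, as did 31 of 33 at 1 h and 57 of 57 at 4 h. For LPS in Veh cells these were 183 of 185 at 1 h and 1294 of 1294 at 4 h. These genes were picked for a large ratio in intact cells. The share with the same sign over all tested genes is not given here, so the counts are a description only. For DHA at 4 h, the log2 ratios had an interquartile range of 0.40 in high-mitochondrial barcodes and 0.26 in intact cells.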

How the data were processed

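The authors' deposited files hold, per library, UMI counts for every gene and for the barcodes that Cell Ranger called as cells (version 3.1.0 and build mm10 in the submitters' processing notes; 3′ v3 chemistry), without the later filter on cells. The study's limits of 20% mitochondrial UMIs, 20000 UMIs and 2000 genes defined the classes. UMIs were summed per gene, class and library without the 13 mt- genes, with 5766542 to 21023237 nuclear UMIs per high-mitochondrial sum and 20516733 to 116015205 per intact sum. Ratios are of CPM with 0.5 UMI added on the log2 scale and scaled by the totals. Of 31053 genes, 5832 had a mean of at least 20 CPM over the sums. No doublet caller was run. The named genes are the 15 with the highest lowest-library ratio, the 15 with the lowest highest-library ratio, and list members that are abundant or past the limit. The members and gene lists were chosen with earlier results of these data known, and where so stated after these values were seen. Gene positions and biotypes are from RefSeq (GRCm38.p6, the files' build), which matched 97.6% of the tested symbols. The comparison by features of protein sequence that had been planned was not run, as no protein table was used here. The computation was tested on simulated data. R 4.3.3, edgeR 4.0.16 (TMM factors only), Python 3.11.15, numpy 2.4.6, scipy 1.17.1, pandas 2.3.3 and matplotlib 3.10.9 were used. Alternatives covered the class limits, weighting of barcodes, scaling, filter, ratio limit, added UMIs and left-out libraries. No test was made and intervals cover counting error only. Some results of single genes are not reported here.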

Additional observations from a re-analysis of the deposited data

How the results depend on the processing

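Of 776 list medians recomputed under the alternatives, 772 kept their direction. The exceptions were the transcription factors (0.16 in place of -0.24 with the class from 40% mitochondrial UMIs), the LPS genes (-0.16 in place of 0.20 among barcodes past the depth limits) and the interferon genes (-0.44 with genes from 5 CPM and -0.37 with no filter, in place of 0.30). The counts of 918 higher and 750 lower genes moved with the filter on low values, the class limits, the scaling and the ratio limit. With the class from 40%, 242 genes were lower, the ER list had 0.91, lysosomal genes 1.10, surface receptors 1.06 and actin -0.72. Past the depth limits, 594 genes were higher and 428 lower, and ribosomal proteins had -0.97. With TMM factors actin had -0.97, and TMM shifted the log2 ratio by -0.27 to 0.05 per library. With totals without genes over 0.5%, 458 genes were lower, ribosomal proteins had -0.62 and actin -0.79. No filter gave 2066 higher genes, 100 CPM gave 305 and 338, and a ratio limit of 2 gave 436 and 91. Leaving out 1 library at a time gave 919 to 1020 higher and 754 to 884 lower genes. Of 77 DHA to Veh values of single genes recomputed, 44 moved and none reversed, and the chemokine ratios were not among them. No paired test was made, because the classes were chosen by UMIs of the same barcodes. Each ratio of the classes was already taken within its library. The alternatives for features of protein sequence were not run. Depth limits single genes in the smaller class sums, and free RNA could not be measured. The causes of these shifts were not tested.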
